A study of Homo sapiens with 6 samples.

Results

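The genes described are 10 transcriptional targets of the MAP kinase ERK, chosen by gene ID from a list given with their Ensembl mouse names. They are the phosphatase genes Dusp4 (ENSMUSG00000031530), Dusp5 (ENSMUSG00000034765) and Dusp6 (ENSMUSG00000019960), and the Sprouty genes Spry1 (ENSMUSG00000037211), Spry2 (ENSMUSG00000022114) and Spry4 (ENSMUSG00000024427). The others are the transcription factor genes Etv4 (ENSMUSG00000017724), Etv5 (ENSMUSG00000013089), Fosl1 (ENSMUSG00000024912) and Egr1 (ENSMUSG00000038418). All 10 IDs were found among the 54532 of the deposited tables, and all 10 were among the 12755 IDs that reached 1 FPKM (fragments counted on a gene, divided by its length and scaled for depth) in at least 2 libraries and were tested. The series holds 6 bulk RNA-seq libraries in groups labelled NC, sh1 and sh4, with 2 libraries in each. Per the labels, every library is from A549 cells, a human lung adenocarcinoma line, and a knockdown group is set against an NC group. The group names are not spelled out there. That sh1 and sh4 both mean knockdown is taken from the series title, which names the target as DSTY. Whether that target was lowered was not analysed here. No vector, selection, clone, dose or time is given for any group.

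ERK is the last kinase of the cascade that runs from growth factor receptors through RAF and MEK. Active ERK enters the nucleus and switches on immediate early genes such as Egr1 and, somewhat later, Fosl1 and the ETS factor genes Etv4 and Etv5. It also induces its own inhibitors: dual-specificity phosphatases, which remove phosphate from MAP kinases, and Sprouty proteins, which act on the cascade upstream of ERK. The mRNA of these genes is often read as a record of ERK output, although each gene also responds to other signals.

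The IDs in the tables do not match the stated organism. Ensembl's mouse prefix opens all 54532 of them and the human prefix 0, while the labels state human cells, so the organism of the RNA is unresolved and the names below are those of the mouse genes listed under these IDs. The markers of A549 cells and of other cell types could not be checked, because no table used here pairs the other IDs with names. Recovered reads came to between 14999786 and 18011798 per library, of which the 10 genes held between 21692 and 23591. Replicates of a group differed by a root-mean-square of 0.23 to 0.24 on the log2(FPKM + 1) scale over the tested IDs. Nothing in the labels says whether replicates were separate cultures, so the p-values measure only the spread between these libraries, which may be technical. Both comparisons with NC use the same 2 NC libraries. In bulk RNA, a lower level in every cell and fewer cells expressing the gene cannot be told apart.

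The 10 genes covered a wide range of levels. Over all libraries the median of their mean levels was 34.1 FPKM, against 7.26 FPKM for all tested IDs. Dusp6 was the most abundant, with a mean of 120.3 FPKM that exceeded the mean level of 97.3% of tested IDs. Spry1 was the least abundant, with a mean of 4.59 FPKM that exceeded that of 37.4%. In NC the order of the group means ran Fosl1, Dusp5, Dusp6, Dusp4, Spry2, Etv4, Egr1, Etv5, Spry4 and Spry1, and among neighbours in that order only Fosl1 and Dusp5 had overlapping libraries. In sh1, Dusp5 stood at rank 9, between Spry4 and Spry1, and the neighbours Fosl1 and Dusp4 overlapped. In sh4, Dusp5 stood at rank 5 and overlapped with Spry2, Etv5 overlapped with Egr1, and Spry1 stood above Spry4.

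**Figure D1:**
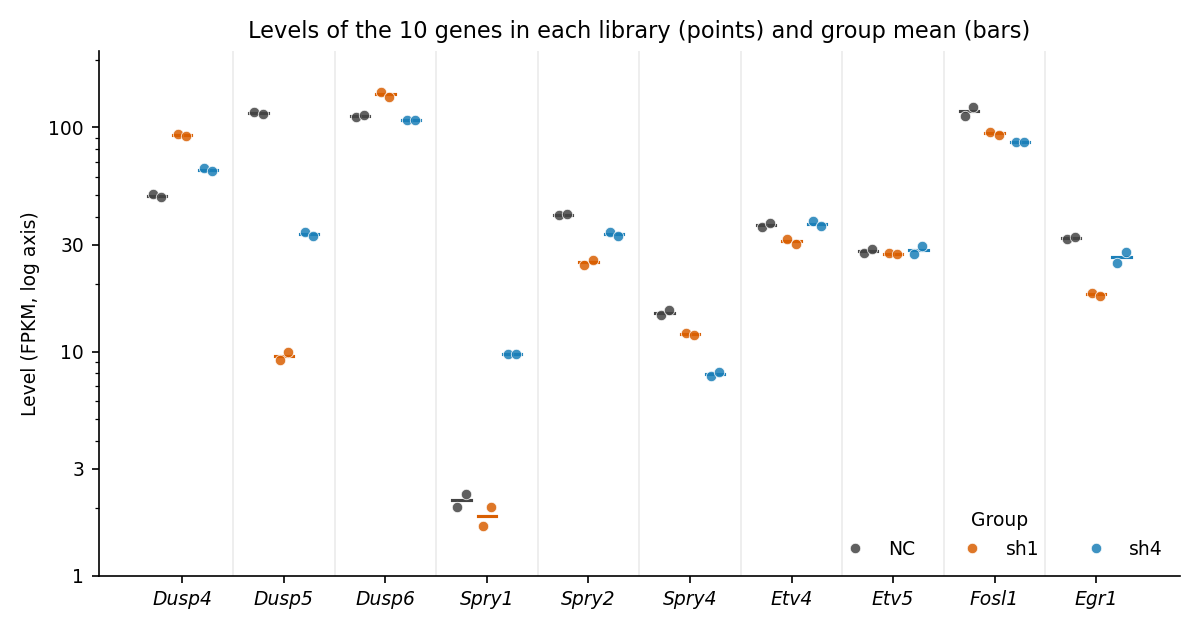
Level of each of the 10 genes in FPKM on a log axis, with 1 point for each library and a bar at the mean of the 2 libraries of a group. Dusp5 drops from about the level of Dusp6 in NC to 9.20 and 9.98 FPKM in sh1, and Spry1 stands at 9.76 and 9.73 FPKM in sh4 against 2.31 FPKM or less in the other libraries.

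The phosphatase genes changed in different directions, and Dusp5 changed most. Dusp5 mRNA was 12.1-fold lower in sh1 and 3.47-fold lower in sh4 than in NC, while Dusp4 rose in both groups and Dusp6 rose in sh1. Dusp5 encodes a nuclear phosphatase selective for ERK. Its level was 118 and 115 FPKM in the NC libraries, 9.20 and 9.98 FPKM in sh1, and 34.3 and 32.9 FPKM in sh4. The groups did not overlap, with sh1 lowest and sh4 between sh1 and NC. These values rest on 4598 and 4367 reads in NC, 380 and 435 in sh1, and 1566 and 1491 in sh4. The log2 fold change of Dusp5 was -3.47 in sh1 (SE 0.053, adjusted p = 1.75e-14) and -1.76 in sh4 (SE 0.053, adjusted p = 1.73e-11) by limma on log2(FPKM + 1), with n = 2 in each group and p-values adjusted over all tested IDs. Among the 12755 tested IDs, this was rank 4 from the lowest in sh1 and rank 92 in sh4. Set directly against each other, sh4 held 3.50 times the Dusp5 level of sh1, a log2 difference of 1.71 (SE 0.053, adjusted p = 3.12e-11).

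Dusp4 encodes a nuclear phosphatase that acts on ERK and on other MAP kinases. It measured 50.6 and 48.8 FPKM in NC, 93.1 and 91.3 FPKM in sh1, and 65.9 and 63.6 FPKM in sh4. Here sh1 was highest, NC lowest and no groups overlapped. Dusp4 rose 1.86-fold in sh1 (log2 fold change 0.88, SE 0.046, adjusted p = 2.01e-09) and 1.30-fold in sh4 (log2 fold change 0.38, SE 0.046, adjusted p = 7.79e-06). The level in sh4 was below that in sh1 by the direct test (log2 difference -0.50, adjusted p = 7.72e-07). Dusp4 and Dusp5 thus differed from NC in opposite directions, and for both genes the log2 fold change was farther from 0 in sh1 than in sh4.

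Dusp6 encodes a cytoplasmic phosphatase of ERK. Its level was 111 and 113 FPKM in NC, 144 and 137 FPKM in sh1, and 108 FPKM in each sh4 library. The sh1 libraries were the highest, and the sh4 libraries lay just below those of NC. Dusp6 rose in sh1 (log2 fold change 0.33, SE 0.042, adjusted p = 1.38e-05). In sh4 its log2 fold change of -0.05 did not pass the test (95% interval -0.14 to 0.04, adjusted p = 0.282). The difference between sh4 and sh1 passed (log2 difference -0.38, SE 0.042, adjusted p = 5.48e-06).

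**Figure D2:**
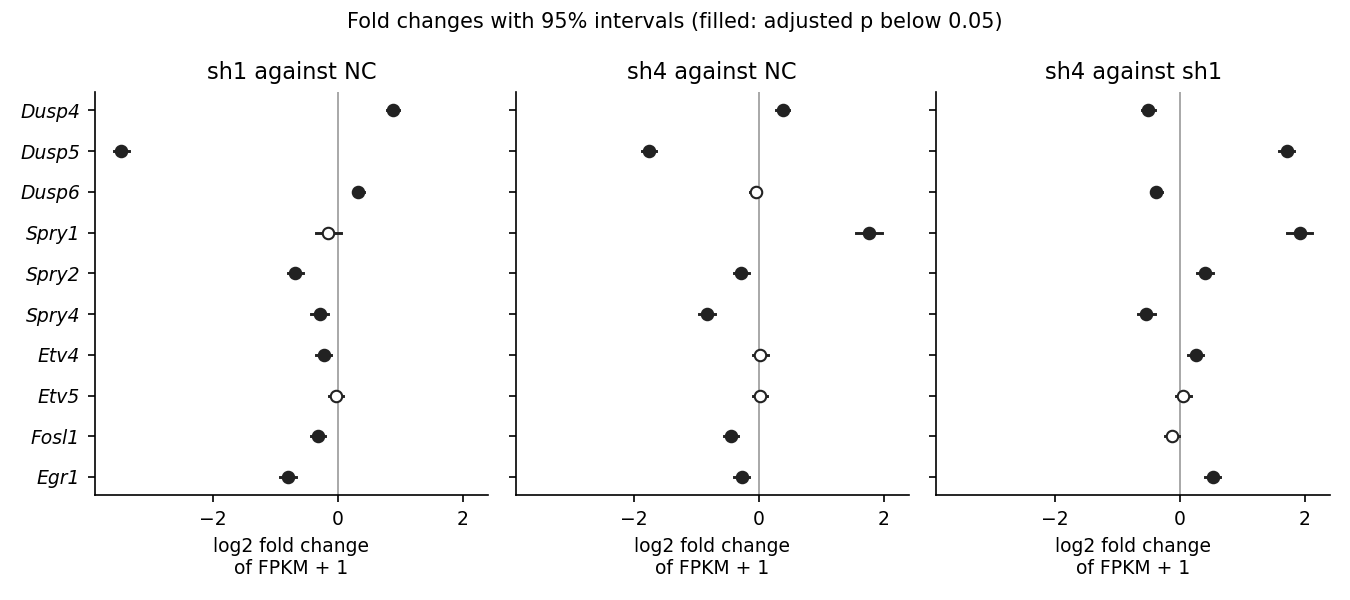
Log2 fold change of FPKM + 1 for each gene (horizontal axis) in the 3 comparisons, with 95% intervals from the limma fit, where filled points have an adjusted p below 0.05. Dusp5 lies at -3.47 in sh1 and -1.76 in sh4, Spry1 is near 0 in sh1 and at 1.76 in sh4, and Etv5 is unfilled in each of the 3 panels.

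Among the Sprouty genes, Spry2 and Spry4 fell in sh1 and in sh4, and Spry1 rose in sh4. Sprouty proteins are inhibitors of receptor tyrosine kinase signalling and are themselves induced through ERK. Spry1 measured 2.03 and 2.31 FPKM in NC, 1.67 and 2.03 FPKM in sh1, and 9.76 and 9.73 FPKM in sh4. The sh4 libraries stood apart, and those of sh1 and NC overlapped. The recovered reads were 93 and 103 in NC, 81 and 104 in sh1, and 524 and 519 in sh4, the fewest of the 10 genes in every library. Spry1 was 4.49-fold higher in sh4 than in NC (log2 fold change 1.76, SE 0.095, adjusted p = 3.35e-09), which is rank 123 from the highest among the tested IDs. The added 1 FPKM lowers this log2 fold change, though not the 4.49-fold ratio of mean FPKM. With 0.1 FPKM added in its place, the log2 fold change was 2.12. In sh1 the log2 fold change of -0.15 did not pass the test (95% interval -0.36 to 0.05, adjusted p = 0.17). Single libraries moved this value, to -0.06 without sh1 replicate 1, -0.25 without sh1 replicate 2 and -0.09 without NC replicate 2, and no alternative brought it past the threshold. Between sh4 and sh1, Spry1 differed by 1.92 log2 units (SE 0.095, adjusted p = 2.26e-09), rank 52 from the highest.

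Spry2 was the most abundant of the Sprouty genes in every library. It measured 40.5 and 41.3 FPKM in NC, 24.4 and 25.7 FPKM in sh1, and 34.0 and 32.8 FPKM in sh4. The groups did not overlap, and sh1 was the lowest. Spry2 fell in sh1 (log2 fold change -0.69, SE 0.057, adjusted p = 2.03e-07) and in sh4 (log2 fold change -0.28, SE 0.057, adjusted p = 0.000625). It was higher in sh4 than in sh1 by 0.40 log2 units (adjusted p = 4.96e-05).

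Spry4 measured 14.5 and 15.3 FPKM in NC, 12.1 and 11.8 FPKM in sh1, and 7.78 and 8.10 FPKM in sh4. NC was the highest group for this gene as for Spry2, but here sh4 and not sh1 was the lowest, and no groups overlapped. Spry4 fell in sh1 (log2 fold change -0.30, SE 0.061, adjusted p = 0.000814) and in sh4 (log2 fold change -0.83, SE 0.061, adjusted p = 6.64e-08). It was lower in sh4 than in sh1 by the direct test (log2 difference -0.54, adjusted p = 7.18e-06).

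Of the ETS factor genes, Etv4 fell slightly in sh1, and Etv5 passed no test with the values as deposited. Both encode factors of the PEA3 group, whose transcription is induced through ERK downstream of growth factor receptors. Etv4 measured 35.9 and 37.6 FPKM in NC, 32.0 and 30.3 FPKM in sh1, and 38.3 and 36.3 FPKM in sh4. The sh1 libraries lay below the others, and those of sh4 and NC overlapped. Etv4 fell in sh1 (log2 fold change -0.23, SE 0.054, adjusted p = 0.00195). In sh4 the log2 fold change was 0.02 (95% interval -0.10 to 0.14, adjusted p = 0.752), and sh4 was higher than sh1 by 0.25 log2 units (adjusted p = 0.00139).

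Etv5 measured 27.6 and 28.6 FPKM in NC, 27.5 and 27.2 FPKM in sh1, and 27.4 and 29.6 FPKM in sh4. The sh4 libraries spanned both NC libraries, and those of sh1 lay just below NC and overlapped with sh4. No comparison passed the test for Etv5 with the values as deposited. The log2 fold change was -0.04 in sh1 (95% interval -0.15 to 0.08, adjusted p = 0.54) and 0.02 in sh4 (95% interval -0.10 to 0.13, adjusted p = 0.805). Between sh4 and sh1 it was 0.05 (95% interval -0.06 to 0.17, adjusted p = 0.404), and with libraries rescaled to the same FPKM sum it was 0.17 and passed (adjusted p = 0.0247). Leaving out 1 library gave 0.0008 (without sh4 replicate 2) to 0.11 (without sh4 replicate 1) between sh4 and sh1, and -0.06 (without NC replicate 1) to -0.01 (without NC replicate 2) in sh1.

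Fosl1 and Egr1 fell in both groups. Fosl1 encodes FRA1, a FOS-family partner in AP-1 that accumulates when ERK activity is sustained. It measured 112.5 and 123.6 FPKM in NC, 95.9 and 92.7 FPKM in sh1, and 86.5 and 86.2 FPKM in sh4. Both NC libraries were above the others, and the NC libraries of Fosl1 were the farthest apart in FPKM of any gene and group among the 10. Fosl1 fell in sh1 (log2 fold change -0.32, SE 0.052, adjusted p = 0.000119) and in sh4 (log2 fold change -0.45, SE 0.052, adjusted p = 5.83e-06). The sh4 libraries were below those of sh1, and this difference lay at the edge of the test (log2 difference -0.13, 95% interval -0.24 to -0.01, adjusted p = 0.0559). It passed in 5 of 14 alternative fits, with an adjusted p down to 0.0397, and shrank to -0.05 with total-read scaling and to -0.0044 with libraries rescaled to the same FPKM sum.

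Egr1, a zinc finger factor and classic immediate early gene, measured 31.9 and 32.6 FPKM in NC, 18.3 and 17.8 FPKM in sh1, and 24.96 and 27.8 FPKM in sh4. The groups did not overlap, with sh1 lowest and sh4 between. Egr1 fell in sh1 (log2 fold change -0.80, SE 0.057, adjusted p = 4.4e-08) and in sh4 (log2 fold change -0.28, SE 0.057, adjusted p = 0.000711). It was higher in sh4 than in sh1 by 0.52 log2 units (adjusted p = 4.76e-06).

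Counted over the 10 genes, most differed between sh1 and NC, as did most IDs in the tables. Of the 10 genes, 2 rose (Dusp4 and Dusp6), 6 fell (Dusp5, Spry2, Spry4, Etv4, Fosl1 and Egr1) and 2 did not pass (Spry1 and Etv5). The 8 calls stand beside 65.6% of all tested IDs called in this comparison, and 74.2% of those with a mean of at least 5 FPKM, so a share of this size is near the background and is not a result about these genes. By direction, 32.4% of all tested IDs were called higher and 33.2% lower. The median log2 fold change was -0.26 over the 10 genes and -0.01 over all tested IDs, and the median absolute log2 fold change was 0.32 against 0.36. A call with at least 1 log2 unit of change was made for 1 of the 10, Dusp5, and for 9.97% of all tested IDs. The libraries did not overlap for 9 of the 10 genes and for 82.3% of all tested IDs.

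Most of the 10 genes differed between sh4 and NC too. In sh4, 2 genes rose (Dusp4 and Spry1), 5 fell (Dusp5, Spry2, Spry4, Fosl1 and Egr1) and 3 did not pass (Dusp6, Etv4 and Etv5). Of all tested IDs, 68.1% were called in this comparison, with 35.0% higher and 33.2% lower, and 76.3% of those with a mean of at least 5 FPKM, so the share of called genes is again near the background. The median log2 fold change was -0.17 over the 10 genes and 0.01 over all tested IDs, and the median absolute value was 0.33 against 0.37. At least 1 log2 unit of change was called for 2 of the 10, Dusp5 and Spry1, and for 10.1% of all tested IDs. The libraries did not overlap for 8 of the 10 genes and for 82.7% of all tested IDs.

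Most of the genes also differed between the knockdown groups themselves. Relative to sh1, 5 genes were higher in sh4 (Dusp5, Spry1, Spry2, Etv4 and Egr1), 3 were lower (Dusp4, Dusp6 and Spry4), and Etv5 and Fosl1 did not pass. Called in this comparison were 56.0% of all tested IDs, with 29.5% higher and 26.4% lower, and 64.4% of those with a mean of at least 5 FPKM, so nothing particular to these genes is read from the count. The libraries did not overlap for 9 of the 10 genes and for 78.0% of all tested IDs. The median absolute log2 difference was 0.45 over the 10 genes and 0.27 over all tested IDs. Differences of at least 1 log2 unit were called for 2 of the 10, Dusp5 and Spry1, and for 6.34% of all tested IDs. Larger absolute differences than those of Spry1 and Dusp5 were seen for 1.01% and 1.53% of the tested IDs.

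**Figure D3:**
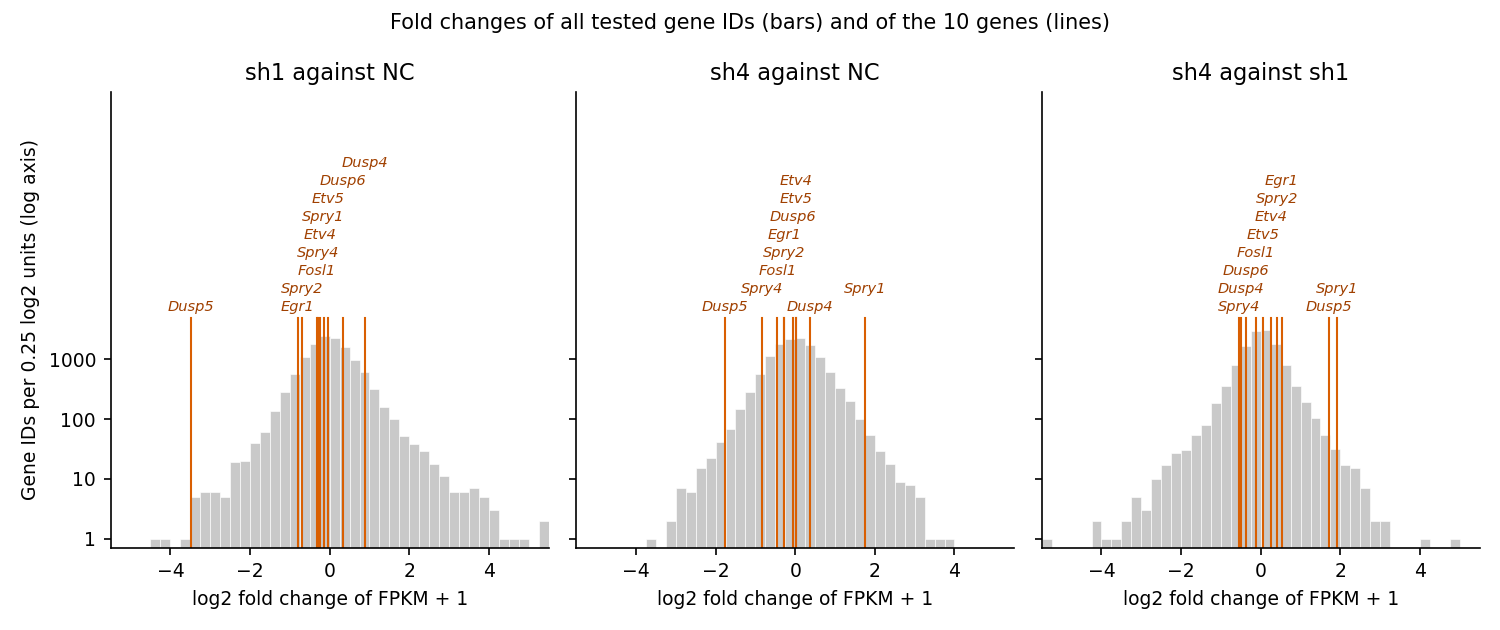
Number of tested gene IDs by log2 fold change of FPKM + 1 in bins of 0.25 log2 units (grey bars, log axis, values beyond the axis counted in the outermost bins), with an orange line for each of the 10 genes in the 3 comparisons. Dusp5 in sh1 lies in the far lower tail, at rank 4 of 12755, while the lines of most other genes lie among the bulk of the IDs.

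Because FPKM is per length, levels of the family members can be added within a library. The summed level of Dusp4, Dusp5 and Dusp6 was 279 and 277 FPKM in NC, 246 and 239 FPKM in sh1, and 208 and 204 FPKM in sh4. Dusp5 held 42.2% and 41.6% of that sum in NC, 3.73% and 4.18% in sh1, and 16.5% and 16.1% in sh4. Dusp4 went from 18.1% and 17.6% in NC to 37.8% and 38.3% in sh1 and 31.7% and 31.1% in sh4.

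The summed level of Spry1, Spry2 and Spry4 was 57.1 and 59.0 FPKM in NC, 38.2 and 39.5 FPKM in sh1, and 51.6 and 50.7 FPKM in sh4. Spry1 held 18.9% and 19.2% of it in sh4, against 3.55% and 3.92% in NC and 4.37% and 5.14% in sh1. Spry4 held 15.1% and 16.0% in sh4, against 25.5% and 26.0% in NC and 31.8% and 29.9% in sh1. In sh4 the order of Spry1 and Spry4 was therefore reversed relative to the other groups. The share of Spry4 in sh1, larger than in NC, is of a smaller sum, and the Spry4 level itself was lower in sh1.

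**Figure D4:**
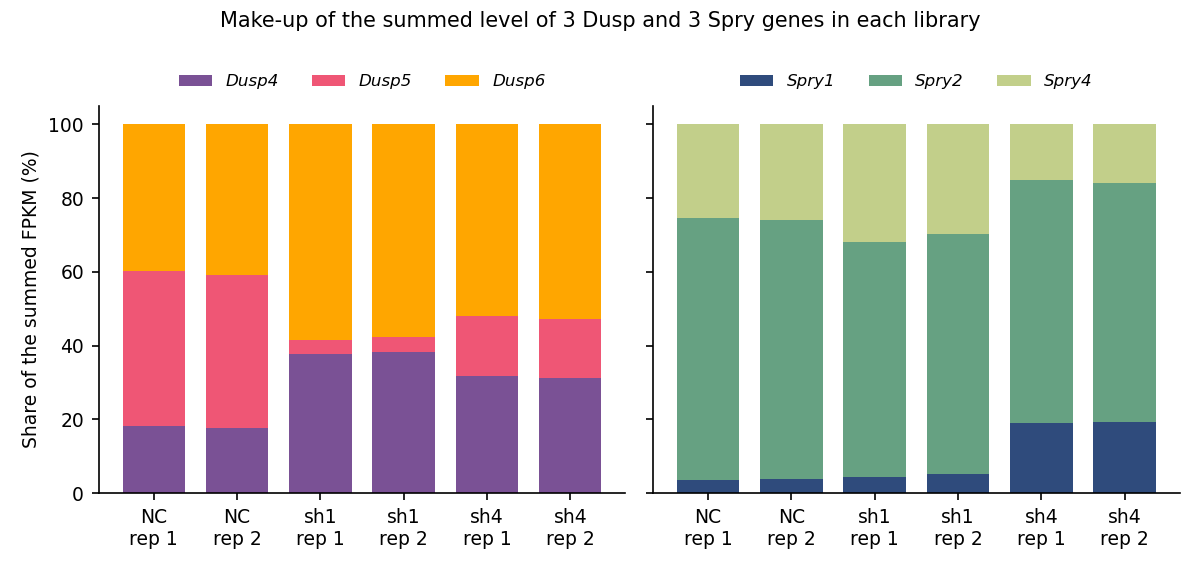
Share in percent of the summed FPKM of Dusp4, Dusp5 and Dusp6 (left) and of Spry1, Spry2 and Spry4 (right) held by each gene in each of the 6 libraries. Dusp5 shrinks from 42.2% and 41.6% in NC to 3.73% and 4.18% in sh1, and Spry1 widens to 18.9% and 19.2% in sh4.

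Over all 10 genes the summed level was 544 and 558 FPKM in NC, 458 and 446 FPKM in sh1, and 437 and 435 FPKM in sh4. Without Dusp5, a split chosen after its values were seen, the sums were 427 and 443 FPKM in NC, 449 and 436 FPKM in sh1, and 403 and 402 FPKM in sh4. On this scale the sh1 libraries overlapped with NC, and the sh4 libraries lay below both, as they did with total-read scaling. With libraries rescaled to the same FPKM sum, the sums without Dusp5 were 439 and 438 FPKM in NC, 432 and 414 FPKM in sh1, and 413 and 424 FPKM in sh4, so that sh1 lay below NC and overlapped with sh4. Both rescalings of this sum were added after seeing the data.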

How the data were processed

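Each deposited file gives 1 FPKM value per gene ID for a single library, computed by the authors, per the file headers. Per the submitters' processing notes, HISAT2 2.0.5 and the build hg18 were used. That build is a human one, while every ID carries Ensembl's mouse prefix, and this conflict is unresolved. Not given in the sources used here are the read counter, the annotation and any filter. RNA was extracted with Trizol, per the labels' protocols.

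Whole reads and gene lengths were recovered from the FPKM values. For 25747 of 25747 IDs above 0 they rebuilt every deposited value to within 1e-06 FPKM plus 1e-07 of the value, though a common factor of reads and length can be missed. Each library's recovered denominator followed its median-of-ratios size factor (largest departure 9.76e-10%), so the deposited values already carry a between-library scaling. Replicates differed by more than counting noise (chi-square per ID of 2.6 to 4.79), and none was counted as 1 library.

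Values of log2(FPKM + 1) were tested with limma 3.58.1 (R 4.3.3), fitted once over all 6 libraries and the 12755 IDs that reached 1 FPKM in at least 2 of them. It used 3 residual degrees of freedom, a robust empirical Bayes variance with the trend on mean recovered reads, and Benjamini-Hochberg adjustment over all IDs within a comparison, with a threshold of 0.05. The recovery of reads and the limma procedure were also run on simulated data. Those data held no true change as small as that of Etv4 in sh1, so they do not bear on such calls. Standard errors and 95% intervals come from the fit to the 6 libraries, and fold changes in words are ratios of mean FPKM. Alternatives were another pseudocount, other filters and scalings, another variance trend, voom on the recovered reads, a replicate block, a minimum fold and leaving out each library.

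The 10 genes and the lists were chosen with earlier results of these data known. The rule was to name all 10 genes, up to 4 genes of each list of other ERK pathway genes (cascade, other phosphatases, other feedback inhibitors, other immediate early genes), and the 5 IDs with the most similar pattern. The last 2 parts and the cell type marker lists needed symbols. Of the IDs, 0 matched the human gene name table used here, so those lists were not analysed here and no further gene is named.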

Additional observations from a re-analysis of the deposited data

Results flagged for a closer look

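For 8 of the 10 genes the size of the change against NC was not the same in both knockdown groups, by limma's direct test of sh4 against sh1 (2 libraries in each group), where 56.0% of all tested IDs and 64.4% of those with a mean of at least 5 FPKM were called, so the count itself is not a result about these genes. Subtracting the log2 fold change of sh1 from that of sh4 gave 1.92 for Spry1, 1.71 for Dusp5, 0.52 for Egr1, 0.40 for Spry2 and 0.25 for Etv4. The result was -0.54 for Spry4, -0.50 for Dusp4 and -0.38 for Dusp6. The largest adjusted p was 0.00139, for Etv4. For Dusp5, Spry2, Egr1 and Dusp4, the change against NC in sh4 was in the direction of that in sh1 and nearer to 0. Spry4 changed in the same direction in both groups and farther from 0 in sh4. For Dusp6 and Etv4 the change against NC passed the test in sh1 and not in sh4, and for Spry1 in sh4 and not in sh1. The labels give no batch for any library, and whether culture, handling or library preparation differed between the groups was not tested.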

How the results depend on the processing

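The counts of changed genes were 8 for sh1 against NC in every fit run with the p-value rule alone, 6 to 7 for sh4 against NC and 8 to 9 for sh4 against sh1. A minimum change of 1 log2 unit left 1, 2 and 2 genes, fewer by construction. With the mean of at least 5 FPKM required, Spry1 was not tested. With the minimum change left out of the count, all 23 results called for single genes kept direction and call in 320 of 320 alternatives. Among these was the fit with the replicate block, which gave 8, 7 and 9 changed genes in that order. The block, the filters, the variance trend and leaving out a library of a group not compared cannot move a fold change. Those fits bear only on its p-value. Deviations of same-numbered libraries from their group means correlated at -0.01 (NC with sh1), 0.12 (NC with sh4) and -0.02 (sh1 with sh4), so the numbers were not taken to pair the libraries. Fits without any 1 of the libraries gave 8, 7 and 8 to 9 changed genes, with the lone library of a group assumed to vary like the others. Of the 7 results not called, Fosl1 between sh4 and sh1 passed with a mean of at least 5 FPKM (adjusted p = 0.0441), with voom (0.0499), with the block (0.0444) and without either NC library (0.0397 and 0.0403). Etv5 between sh4 and sh1 passed with libraries rescaled to the same FPKM sum (log2 difference 0.17, adjusted p = 0.0247), a scaling that moved the median difference of all tested IDs by 0.099. In sh4 against NC, fits without 1 library gave Etv5 -0.0381 to 0.07, below 0 without NC replicate 1 (-0.0098) and without sh4 replicate 2. They gave Etv4 -0.0169 to 0.058, below 0 without NC replicate 1 (-0.0126) and without sh4 replicate 1. None of these 4 turned values passed the test, and the cause was not tested. The largest moves of called values were for Spry1 by voom on reads, at 2.17 in sh4 against NC and 2.39 between sh4 and sh1. Spry1 in NC and sh1 rests on 81 to 104 reads a library, the fewest of the 10 genes, which limits its precision.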
